A study of Mus musculus with 6 samples.

Results

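Interferon-stimulated genes are genes whose transcription rises when a cell senses an interferon. The members described here are 50 such genes, taken by symbol from a table of 14744 genes in follicular helper T (Tfh) cells. A gene was kept where its value reached at least 10 in at least 3 of the 6 libraries, and 50 of the 50 members met this, as did 11296 genes of the whole table. The study asked what the transcription factor Bach2 does in Tfh cells, which help B cells form antibody. Poly(A) RNA was sequenced from 3 WT samples and 3 samples of Bach2 fl/fl Cd4-cre mice, labelled Bach2-cKO here, all 2 to 3 months old and of strain C57BL/6 in the labels, C57BL/6J in the methods. The Cd4-cre transgene deletes floxed DNA in every T cell that has passed through the CD4+ stage, so the deletion is not limited to Tfh cells, and the study designates Cd4-Cre littermates as WT, although not where it describes the sequencing. From the mesenteric lymph nodes, 10000 to 30000 cells per sample were sorted as CD4+B220-CD44+PD-1+CXCR5+. No source says whether a sample is 1 mouse or a pool, so the p-values measure the spread between these samples, which may be technical.

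Interferons alpha and beta bind the receptor chains Ifnar1 and Ifnar2, and the kinases Jak1 and Tyk2 then phosphorylate Stat2, which acts with Irf9 at the interferon-stimulated response element of its target genes. Interferon gamma acts through Ifngr1 and Ifngr2 and on genes with a gamma-activated site. The target genes encode sensors of foreign nucleic acid, enzymes and GTPases that restrict viruses and intracellular microbes, and brakes such as Usp18, and T cells express many of them at a low level without infection.

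The values are the authors' normalized read counts, that is, reads per gene divided by a size factor for each library. In every library 100% of the values were whole multiples of 1 step, within a tolerance of 0.01 of a step. Taking a step as 1 read gave 7737531, 6585742 and 7823717 reads in WT replicates 1, 2 and 3 and 5045131, 10987752 and 7197242 in replicates 1, 2 and 3 labelled Bach2-cKO. WT replicate 1 stood apart, with 11648 genes above 0 where the other libraries had 13111 to 13567. The members' median and a part of the single genes are therefore also given without it.

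The targeted gene was examined first. Bach2 was at 233, 222 and 105 normalized counts in WT replicates 1, 2 and 3 and at 399, 763 and 591 in replicates 1, 2 and 3 labelled Bach2-cKO. Every library labelled Bach2-cKO was thus above every WT library, which goes against the label (log2 fold change 1.68, limma adjusted p = 0.141). DESeq2 on 5 libraries, WT replicate 1 left out, called it higher, at 1.81 with an adjusted p of 0.00123. The table counts reads over the whole gene, so exons outside the floxed part add to this value. Each direction below is that of libraries labelled Bach2-cKO against WT libraries.

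Few members differed between the groups by more than their spread. With limma on log2(normalized count + 1), 0 of 50 members were higher and 0 lower at the study's thresholds (over 2-fold, with adjusted p below 0.01), beside 0% of all genes tested in each direction. At an unadjusted p under 0.05, limma gave 3 members higher, Parp9, Gbp7 and Oas3, and 2 lower, Ifi47 and Phf11b, where 10.1% of all genes tested were higher and 10.2% lower. The members' counts were below those shares in this fit, but not in each alternative. Without WT replicate 1, limma gave 9 of 50 members lower, a larger share than the 9.43% of all genes. DESeq2 on 5 libraries gave 7 of 50 lower, also a larger share than the 9.45% of all genes. The edgeR and DESeq2 tests on whole reads of 5 libraries, WT replicate 1 left out, also called 0 members. DESeq2 called 0.292% of all genes higher and 0.505% lower. Weighting each library by its estimated precision called 5 members lower, Ifi44, Irf7, Usp18, Oas1a and Phf11b, and 0 higher, beside 5.02% and 4.97% of all genes. The weights were 0.206, 1.04 and 2.51 for WT replicates 1, 2 and 3. They were 0.791, 5.54 and 0.421 for replicates 1, 2 and 3 labelled Bach2-cKO. In this fit the group labelled Bach2-cKO thus rested mainly on replicate 2.

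In 3 members, Ifnar1, Oas3 and Parp9, every value labelled Bach2-cKO lay above every WT value, beside 14.6% of all genes tested. In 2 members, Ifi35 and Ifi47, every value lay below, beside 12.2%. The median log2 fold change was 0.09 over the 50 members and 0.08 over all genes tested, with 28 members above 0 and 22 below. The members ran from -0.82 for Ifi44 to 1.10 for Oas2. Without WT replicate 1 the members' median was -0.18, and that over all genes tested was 0.03.

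**Figure D1:**
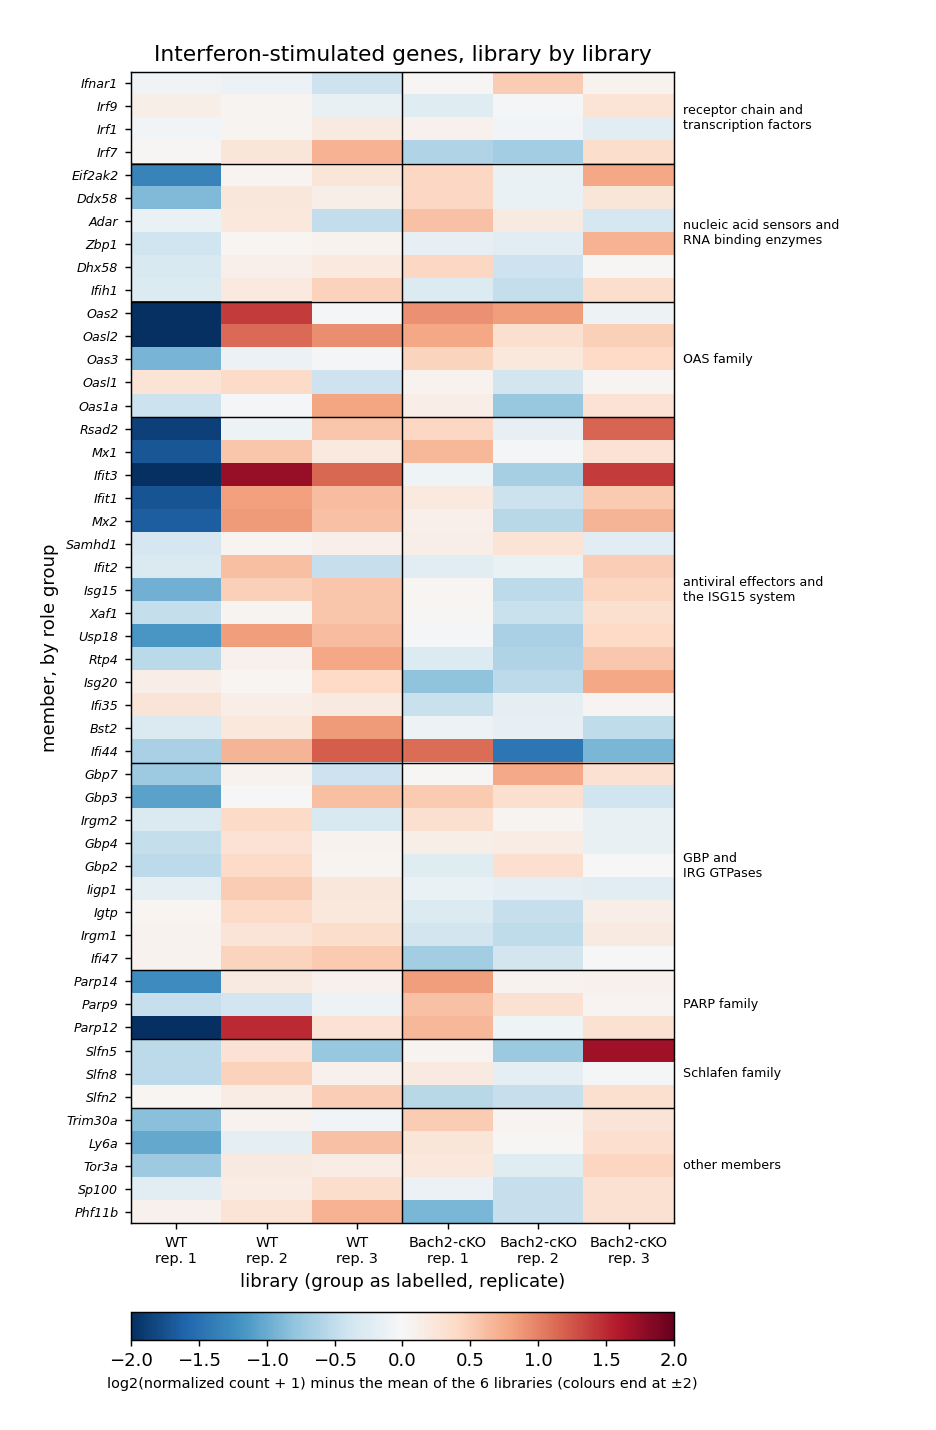
Each row is 1 of the 50 members, grouped by role, and each column 1 library; the colour gives log2(normalized count + 1) minus that gene's mean over the 6 libraries. WT replicate 1 was the lowest library for 26 members, and its median over the members was -0.48.

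Single libraries differed in these genes by more than the groups did. The members' median deviation from their mean over the 6 libraries was -0.48, 0.21 and 0.22 on the log2 scale in WT replicates 1, 2 and 3. It was 0.08, -0.18 and 0.29 in replicates 1, 2 and 3 labelled Bach2-cKO. The same medians over all genes tested lay between -0.06 and 0.08. WT replicate 1 was thus the low library, followed by replicate 2 labelled Bach2-cKO, and the groups overlapped. WT replicate 1 was the lowest library for 26 of 50 members (52.0%), and for 34.2% of all genes tested.

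Ifit3, which encodes an antiviral protein with tetratricopeptide repeats, was at 19.2, 786 and 519 normalized counts in WT replicates 1, 2 and 3. It was at 222, 147 and 622 in replicates 1, 2 and 3 labelled Bach2-cKO. WT replicate 1 was 27.1-fold below WT replicate 3 and 41.0-fold below WT replicate 2, and the other 2 WT libraries enclosed 1 of the 3 libraries labelled Bach2-cKO. Oasl2, a relative of the oligoadenylate synthetases, was at 7.07, 220 and 191 in WT and at 171, 124 and 139 in the libraries labelled Bach2-cKO. The log2 fold change of Oasl2 was 1.05 with all libraries and -0.51 without WT replicate 1, and that of Ifit3 was 0.44 and -1.23. In 6 members both other WT libraries were at least 4-fold above WT replicate 1, namely Oas2, Oasl2, Ifit1, Ifit3, Mx2 and Parp12. These genes were singled out after their values were seen. They are 6 of 50 members, where 10.8% of all genes tested met the same limit, and at a limit of 2-fold 15 of 50 members and 17.5% of all genes did. WT replicate 1 was the highest library for 1 of 50 members and for 26.7% of all genes tested, so over all genes it stood out in both directions and over the members mainly as low.

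Among the receptor chain and transcription factors, Ifnar1, a chain of the receptor for interferons alpha and beta, was at 351, 341 and 279 normalized counts in WT and at 377, 528 and 389 in the libraries labelled Bach2-cKO. The groups did not overlap, but the difference was within the test's error (log2 fold change 0.40, 95% confidence interval -0.16 to 0.97, limma adjusted p = 0.372). The value was 0.25 without replicate 2 labelled Bach2-cKO and 0.09 with a trend in length and GC content removed. Irf7, which amplifies interferon transcription, was at 630, 736 and 1007 in WT and at 409, 383 and 796 in the libraries labelled Bach2-cKO. Replicates 1 and 2 labelled Bach2-cKO were the low libraries, and replicate 3 lay within the WT range (log2 fold change -0.63, limma adjusted p = 0.276, or -0.78 without WT replicate 1). Irf1, a factor induced by interferon gamma, was at 1230, 1333 and 1450 in WT and at 1363, 1233 and 1105 in the libraries labelled Bach2-cKO. Irf9, the DNA-binding partner of Stat2, was at 1018, 976 and 851 and at 800, 917 and 1134. Both overlapped between the groups, with log2 fold changes of -0.12 and -0.01.

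Over the 6 sensors and RNA binding enzymes the median log2 fold change was 0.24 with all libraries and 0.02 without WT replicate 1. At a limma unadjusted p under 0.05, 0 of the 6 passed, beside 10.1% of all genes tested higher and 10.2% lower. In so few genes a count of 0 is near those shares. Eif2ak2, the kinase that halts translation on double-stranded RNA, was at 97.9, 259 and 294 normalized counts in WT and at 333, 226 and 425 in the libraries labelled Bach2-cKO. Ddx58, the cytosolic RNA sensor RIG-I, was at 227, 492 and 456 and at 556, 382 and 497. Zbp1, a sensor of Z-form nucleic acid, was at 452, 615 and 629 and at 534, 514 and 967. In all 3 genes WT replicate 1 was the lowest library, and the other libraries of both groups overlapped.

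The OAS family makes oligoadenylates that activate an RNA-degrading enzyme. Oas3, on chromosome 5 of GRCm38 from 120753098 to 120777661, was at 139, 247 and 264 normalized counts in WT and at 365, 311 and 353 in the libraries labelled Bach2-cKO. Each library labelled Bach2-cKO was above each WT library, by 0.71 ± 0.31 (SE) on the log2 scale (limma adjusted p = 0.236), or by 0.42 without WT replicate 1. Oas2 was at 4.04, 105 and 38.5 in WT and at 75.4, 71.0 and 36.8 in the libraries labelled Bach2-cKO. Oas1a was at 359, 476 and 838 and at 531, 286 and 593. Both overlapped between the groups, and the log2 fold change of Oas2 was 1.10 with WT replicate 1 and -0.13 without it. Of the longest Oas1a transcript, 57.6% of all stretches of 50 bases also occur in transcripts of another gene, so its reads may be split between copies. Oas1g shared more of them than any other gene did. Oas1g was under the filter, at 1.01, 2.24 and 33.3 in WT and at 2.96, 3.35 and 1.02 in the libraries labelled Bach2-cKO.

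Among the 15 antiviral effectors and genes of the ISG15 system, a ubiquitin-like modifier, 7 had a log2 fold change above 0 and 8 below, and 9 were lowest in WT replicate 1. Their median was -0.04 with all libraries and -0.53 without WT replicate 1. Ifi35 was at 773, 709 and 726 normalized counts in WT and at 473, 564 and 672 in the libraries labelled Bach2-cKO, without overlap (log2 fold change -0.38, limma adjusted p = 0.335, or -0.35 without WT replicate 1). Bst2, the tetherin that holds budding viruses at the cell surface, was at 708, 1002 and 1558 and at 808, 774 and 611. Samhd1, which lowers the nucleotide supply of viral polymerases, was at 1846, 2431 and 2500 and at 2536, 2842 and 2032. Ifi35 alone of the 15 was free of overlap, where 14.6% of all genes tested were higher and 12.2% lower without overlap. Ifit1 was at 114, 671 and 580 in WT and at 433, 280 and 545 in the libraries labelled Bach2-cKO, and Mx2, of the dynamin-like antiviral GTPases, was at 12.1, 72.9 and 60.3 and at 42.9, 26.8 and 64.4. Without WT replicate 1 their log2 fold changes were -0.62 and -0.64, against 0.19 and 0.14 with it.

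The GBP and IRG GTPases are typical targets of interferon gamma that attack the vacuoles of intracellular microbes. Ifi47, on chromosome 11 from 49076587 to 49096974, was at 3374, 4384 and 4642 normalized counts in WT and at 1988, 2504 and 3238 in the libraries labelled Bach2-cKO. All 3 WT libraries were above all 3 libraries labelled Bach2-cKO, although replicate 3 labelled Bach2-cKO came close to WT replicate 1. On the log2 scale the difference was -0.70 ± 0.23 (SE), with a 95% confidence interval of -1.20 to -0.19 and a limma adjusted p of 0.162, and it lay between -0.88 and -0.52 when any 1 library was omitted. Gbp7, on chromosome 3 from 142530342 to 142550149, was at 391, 676 and 485 in WT and at 655, 1094 and 801 in the libraries labelled Bach2-cKO. Replicate 1 labelled Bach2-cKO lay below WT replicate 2, and the log2 difference was 0.72 ± 0.28 (SE, limma adjusted p = 0.200), or 0.54 without WT replicate 1. Irgm1, a regulator of the IRG family, was at 1336, 1528 and 1630 and at 989, 899 and 1437. Its groups overlapped in replicate 3 labelled Bach2-cKO (log2 fold change -0.46, limma adjusted p = 0.273). Of the 9 GTPases, 5 had a log2 fold change above 0 and 4 below, the latter being Ifi47, Irgm1, Igtp and Iigp1. Igtp and Irgm2 overlap in the annotation, so reads of the pair may not be told apart.

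All 3 PARP members, of the family that transfers ADP-ribose, had a log2 fold change above 0 with all libraries, but Parp12 was at -0.60 without WT replicate 1. Parp9, on chromosome 16 from 35938470 to 35972605, was at 470, 500 and 605 normalized counts in WT and at 972, 804 and 678 in the libraries labelled Bach2-cKO. Every library labelled Bach2-cKO was above every WT library (log2 difference 0.63 ± 0.23, SE, limma adjusted p = 0.182), and the value was 0.56 without WT replicate 1. Parp9 overlaps its partner gene Dtx3l in the annotation. Parp14 was at 328, 885 and 828 and at 1400, 825 and 828, and Parp12 at 8.07, 162 and 69.7 and at 90.2, 53.6 and 70.6. Those 2 genes overlapped between the groups.

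Of the Schlafen genes, a family with roles in T cell quiescence, Slfn2 was at 4355, 4728 and 5995 normalized counts in WT and at 2892, 3078 and 5308 in the libraries labelled Bach2-cKO. Slfn5 was at 85.8, 153 and 72.8 and at 129, 74.4 and 404, and Slfn8 at 360, 712 and 549 and at 582, 458 and 505. In Slfn5 replicate 3 labelled Bach2-cKO was the high library, and without it the log2 fold change was -0.0089 where it was 0.67 with it. Phf11b, of a family of zinc finger genes on chromosome 14, was at 1870, 2135 and 2846 in WT and at 934, 1280 and 2165 in the libraries labelled Bach2-cKO. Replicates 1 and 2 labelled Bach2-cKO were below all WT libraries and replicate 3 was not (log2 difference -0.71 ± 0.30, SE, limma adjusted p = 0.226). Omitting any 1 library gave -1.04 to -0.43. Of the longest Phf11b transcript 47.0% of the stretches of 50 bases also occur in another gene, and Phf11a shared more of them than any other gene did. Trim30a, a ubiquitin ligase, was at 1157, 2172 and 1981 and at 2937, 2147 and 2464. Ly6a, the surface protein Sca-1, was at 8058, 14293 and 24587 and at 19379, 16612 and 20690. Both overlapped between the groups, and without WT replicate 1 their log2 fold changes were 0.27 and 0.0053.

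**Figure D2:**
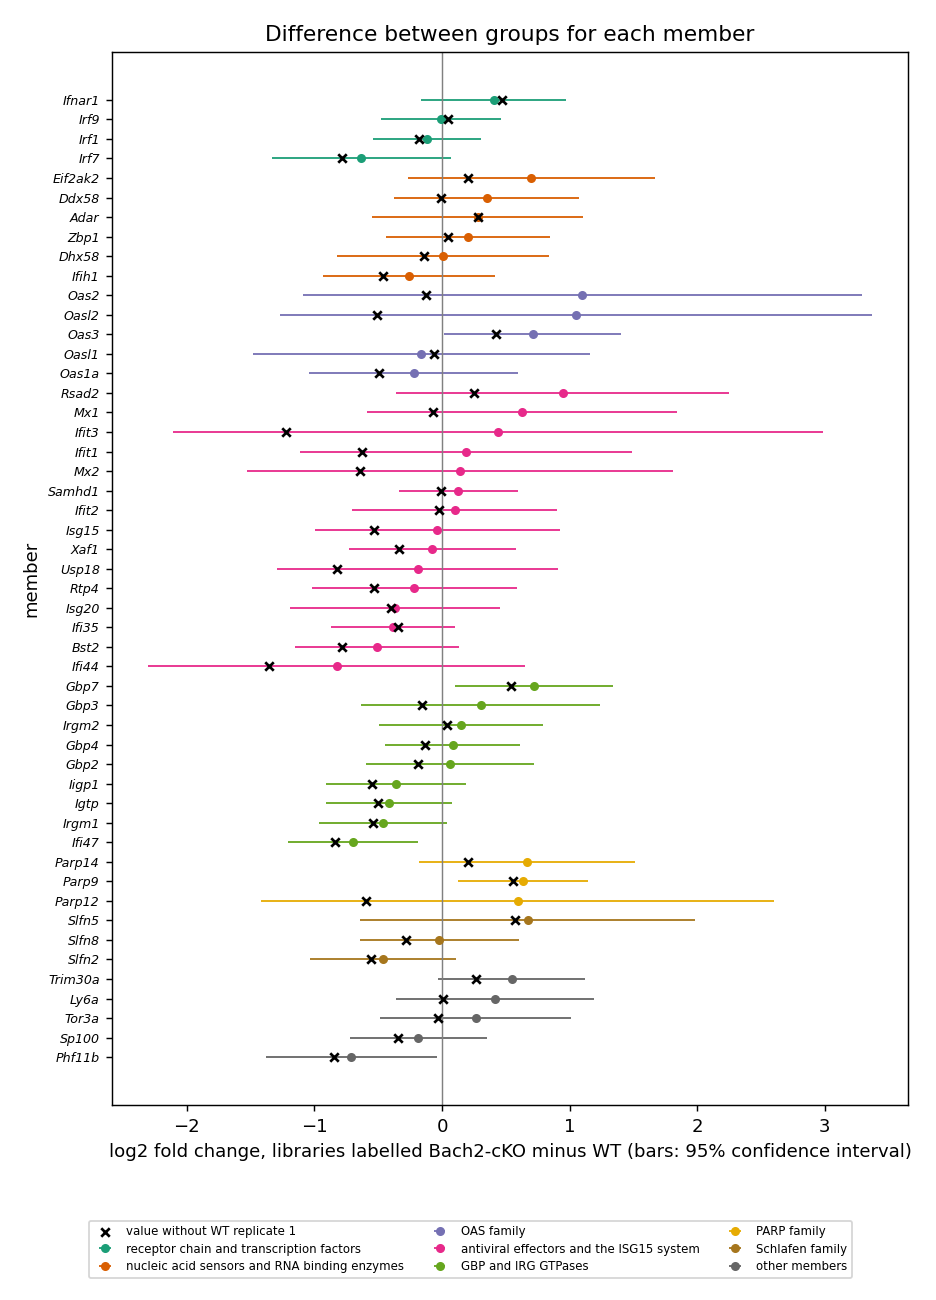
Points are log2 fold changes of the 50 members, libraries labelled Bach2-cKO minus WT, with 95% confidence intervals from limma on all 6 libraries, and crosses are the values without WT replicate 1. The intervals of Oas3, Gbp7, Ifi47, Parp9 and Phf11b lie on 1 side of 0, and the cross of Ifit3 is at -1.23 where its point is at 0.44.

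The abundance of the members spread widely. Per kilobase of the longest transcript and as a mean over the 6 libraries, Ly6a had 18084 normalized counts, Slfn2 2640 and Ifi47 1892. At the other end Oas2 had 13.9 and Oasl1 15.2. Another annotated gene overlaps the span of 23 of the 50 members. In 9 members more than 10% of the stretches of 50 bases also occur in another gene. Ifit3 is among them with 51.2%, and Ifit3b shared more of its stretches than any other gene did. No source states that the counting used strand, so reads of overlapping genes may be shared.

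Fold change followed transcript length. Across 11266 genes with a length, Spearman's rho of fold change with the longest transcript in GENCODE M21 was 0.320, and across the 50 members it was 0.506, where genes are not independent replicates. The 28 members above 0 had a median length of 3659.5 bases and the 22 below 0 one of 2079.5 bases. After each library was corrected for a trend in length and GC content, the median log2 fold change was 0.03 over the members and -0.04 over all genes tested. That of Ifi47 was then -0.28, of Phf11b -0.25, of Parp9 0.46, of Gbp7 0.49 and of Oas3 0.14. Whether length itself sets these differences was not tested.

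**Figure D3:**
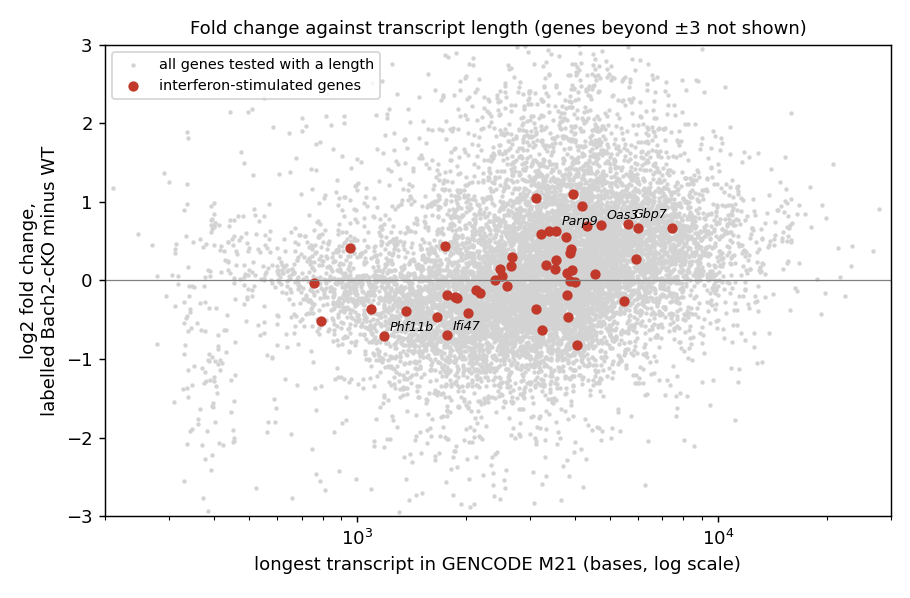
Grey points are genes tested, red points the 50 members, by longest transcript (bases, log scale) and log2 fold change of libraries labelled Bach2-cKO minus WT. Not drawn are 73 genes beyond the limits of the fold change axis, genes beyond those of the length axis, and genes without a length. Phf11b and Ifi47 are short and below 0, and Oas3 and Gbp7 are long and above 0. Parp9, at 3548 bases, is near the members' median of 3282.5 bases and above 0.

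Promoters from RefSeq on GRCm38.p6, 250 bases before to 50 after each start, were at hand for 37 of the 50 members. A match to the interferon-stimulated response element was a GAAA followed, after any 2 bases, by another GAAA on either strand, and a match to the gamma-activated site was TTCNNNGAA. Of those 37 members, 20 (54.1%) held a response element match and 13 (35.1%) a gamma-activated site match, and 6 held both. Over all 27025 genes of the promoter table the shares were 3.99% and 9.55%. The median log2 fold change was 0.17 over the 20 members with a response element match and -0.12 over the 17 without, but -0.24 and -0.35 when WT replicate 1 was left out, so the sign of the first rests on that library. For the gamma-activated site the medians were 0.10 over 13 members with a match and -0.01 over 24 without, and -0.02 and -0.40 with WT replicate 1 left out. A match is a description of letters and not of a bound site. Windows of members described above follow, on the gene's own strand, with the match nearest the start in capitals, and the window of Ifit1 holds a 2nd match in lower case.
Gbp7, chr3:142530263-142530312: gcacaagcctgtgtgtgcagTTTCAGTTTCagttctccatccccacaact
Oas3, chr5:120777705-120777754: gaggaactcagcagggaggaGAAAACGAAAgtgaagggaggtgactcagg
Phf11b, chr14:59341351-59341400: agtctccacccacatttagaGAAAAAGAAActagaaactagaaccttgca
Ifit3, chr19:34583387-34583436: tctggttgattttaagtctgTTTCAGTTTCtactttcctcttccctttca
Ifit1, chr19:34640784-34640833: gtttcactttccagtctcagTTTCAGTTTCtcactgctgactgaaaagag
The window of Ifi47 held no match of either kind. Among these genes Gbp7 and Oas3 were higher at an unadjusted p under 0.05, Phf11b lower, and Ifit1 and Ifit3 overlapped between the groups, so a match was found with each kind of pattern.

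The other genes of the pathway were taken from 6 lists. Outside the members, 108 of these genes were tested, and 0 passed the thresholds in limma on all libraries, as did 0% of all genes tested. With library weights 7 were called higher, Stat2, Tyk2, Ifngr2 and Tap1 among them, beside 4.97% of all genes. In the same fit 9 were called lower, Ifng, Tmem173, Tgtp2 and Mnda among them, beside 5.02%. In that fit the group labelled Bach2-cKO rested mainly on its replicate 2. DESeq2 on 5 libraries called 0 higher and 2 lower, Ifng and Tgtp2, beside 0.292% and 0.505%. At an unadjusted p under 0.05, 19 of the 108 were higher and 12 of the 108 lower in the libraries labelled Bach2-cKO. Over all genes tested 10.1% were higher and 10.2% lower, and those 2 shares are also the background of each list below. The median log2 fold change of the 108 genes was 0.09 with all libraries and -0.04 without WT replicate 1. The only interferon gene in the table used was Ifng, at 180, 164 and 362 normalized counts in WT and at 32.5, 91.1 and 51.1 in the libraries labelled Bach2-cKO. All 3 libraries labelled Bach2-cKO were below all WT libraries (log2 difference -2.02 ± 0.49, SE, limma adjusted p = 0.141), and DESeq2 on 5 libraries called it, with an adjusted p of 0.00345.

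Of the 8 receptor chains and kinases tested, the member Ifnar1 among them, 2 were higher at an unadjusted p under 0.05, Tyk2 and Ifngr2, and 0 were lower. Tyk2 was at 59.6, 223 and 177 normalized counts in WT and at 470, 363 and 226 in the libraries labelled Bach2-cKO. Ifngr2 was at 19.2, 133 and 76.9 and at 132, 249 and 159. Tyk2 was free of overlap and Ifngr2 was not, and without WT replicate 1 their log2 fold changes were 0.76 and 0.77 where they were 1.34 and 1.55. With a trend in length and GC content removed the values were 0.63 for Tyk2 and 1.28 for Ifngr2. Jak1 was at 3130, 4269 and 3865 and at 4339, 4398 and 5227.

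Among 6 STATs and other interferon regulatory factors, 1 was higher at an unadjusted p under 0.05, Stat2, and 0 were lower. Stat2 was at 50.5, 220 and 131 normalized counts in WT and at 333, 324 and 280 in the libraries labelled Bach2-cKO. Each library labelled Bach2-cKO was above each WT library (log2 fold change 1.45, limma adjusted p = 0.163), and without WT replicate 1 the value was 0.87. Irf4 was at 193, 259 and 205 and at 383, 326 and 238, with overlap, and Irf3 at 415, 421 and 460 and at 508, 499 and 499, without overlap (log2 fold change 0.22, limma adjusted p = 0.562).

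Of 12 brakes on interferon signaling, 3 were higher and 2 lower at an unadjusted p under 0.05. Pias1, a SUMO ligase, was at 1394, 960 and 1002 normalized counts in WT and at 418, 516 and 610 in the libraries labelled Bach2-cKO. Ptpn2, a phosphatase of Jak and Stat proteins, was at 1915, 1626 and 1855 and at 910, 1126 and 1433, and Ptpn11 at 935, 1190 and 1209 and at 2289, 1414 and 2041. None of the 3 overlapped between the groups, Pias1 and Ptpn2 being lower and Ptpn11 higher (limma adjusted p = 0.141, 0.162 and 0.151).

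Of 10 sensor adaptors and kinases, 3 were higher and 1 lower at an unadjusted p under 0.05. Tmem173, the adaptor STING of the DNA sensing pathway, was at 2352, 2278 and 2451 normalized counts in WT and at 1184, 1165 and 1506 in the libraries labelled Bach2-cKO. Its groups lay apart, at -0.89 ± 0.19 (SE) on the log2 scale (limma adjusted p = 0.141) and -0.89 without WT replicate 1. Ticam1 was at 2.02, 33.7 and 27.0 and at 99.0, 69.0 and 62.4, and Trim25, which ubiquitinates RIG-I, at 107, 383 and 351 and at 689, 624 and 403. Both were higher without overlap, at log2 fold changes of 2.41 and 1.19, or 1.29 and 0.60 without WT replicate 1.

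Of 72 other interferon-stimulated genes tested, 10 were higher and 8 lower at an unadjusted p under 0.05. Tgtp2, an IRG GTPase, was at 1340, 1577 and 1987 normalized counts in WT and at 276, 302 and 853 in the libraries labelled Bach2-cKO. Tap1, the transporter of peptides for MHC class I, was at 527, 607 and 654 and at 2054, 1287 and 892, and Mnda at 264, 137 and 164 and at 23.6, 46.9 and 76.7. The groups lay apart in all 3, Tgtp2 and Mnda being lower and Tap1 higher (limma adjusted p = 0.141 for each). The list's median log2 fold change was -0.02 with all libraries and -0.19 without WT replicate 1, and with all libraries its counts in each direction were near the shares over all genes tested.

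**Figure D4:**
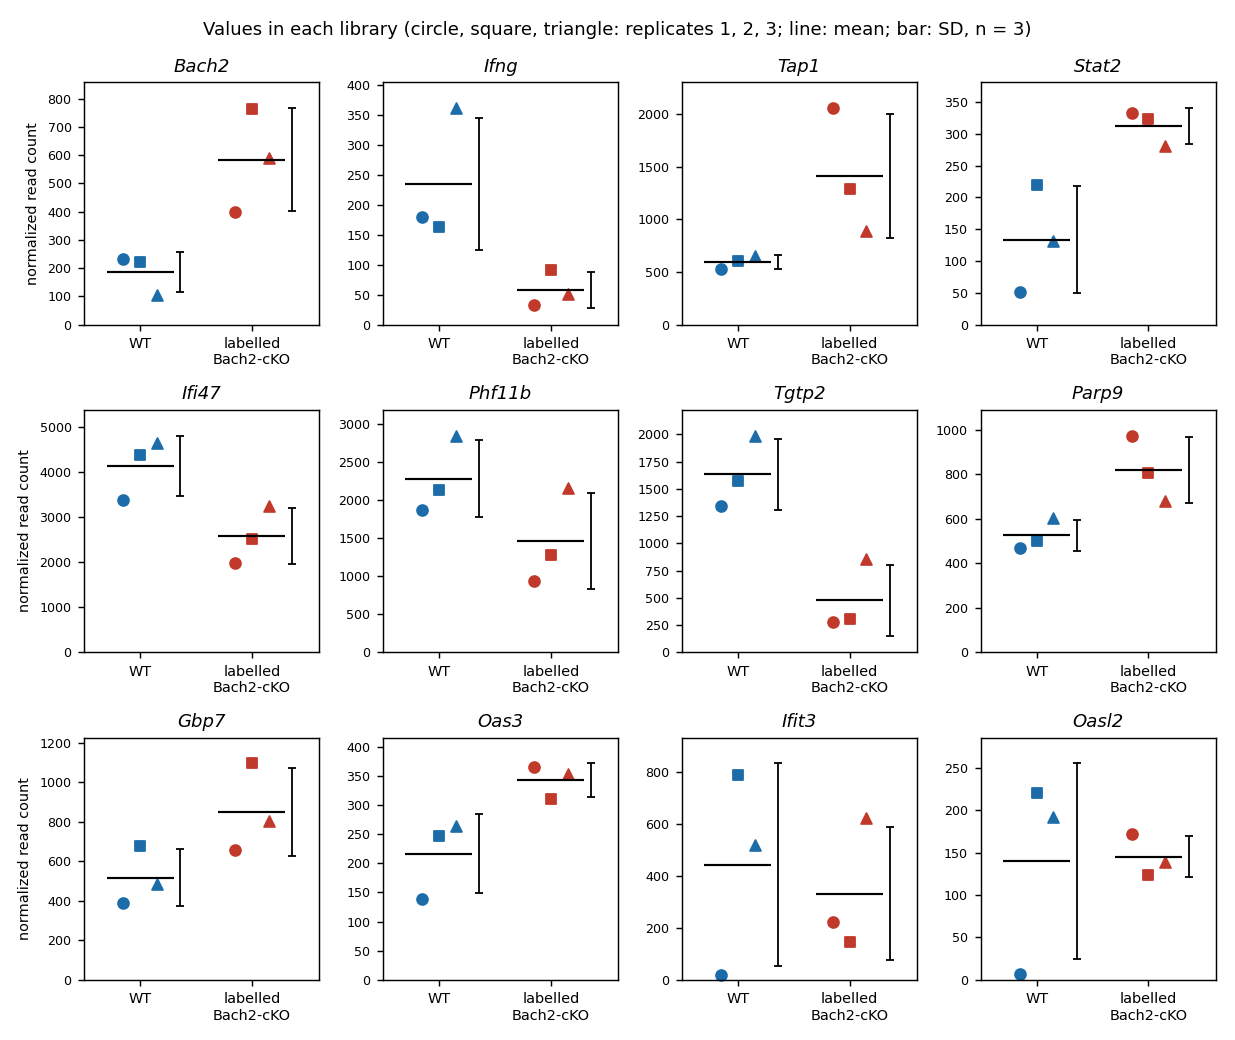
Normalized read counts of 12 genes in each library, with the group mean and SD (n = 3). Ifng runs from 164 to 362 in WT and from 32.5 to 91.1 in the libraries labelled Bach2-cKO, Tap1 runs the other way, and in Ifit3 and Oasl2 the circle of WT replicate 1 lies at 19.2 and 7.07.

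Markers of the sorted cells were present in every library, with Cxcr5 between 1271 and 2207 normalized counts and Cd4 between 2407 and 4131, but some of them differed between the groups. Of the 6 T cell and 7 Tfh genes, Cd3e and Icos were lower without overlap (log2 fold changes -1.02 and -1.03), and Cd4, Cd44 and Bcl6 were higher without overlap (0.49, 0.93 and 0.74). Of the 4 regulatory T cell genes, Foxp3 and Ctla4 were lower without overlap (-1.76 and -0.38), Foxp3 at 222, 315 and 344 normalized counts in WT and at 47.3, 140 and 91.0 in the libraries labelled Bach2-cKO, and Il2ra and Ikzf2 overlapped. Over all genes tested 14.6% were higher and 12.2% lower in that way. Markers of other cells were read beside the members, because bulk RNA cannot tell fewer cells of a type from less RNA per cell. All 8 myeloid and dendritic cell genes were in the table, and their sum was 6547, 16165 and 8982 in WT and 7558, 14683 and 5430 in the libraries labelled Bach2-cKO. Cst3 had the highest mean over the libraries, at 2634 to 4446, but Lyz2 was above it in WT replicate 2 (7211) and WT replicate 3 (3444), and Itgam was at 0 in WT replicate 1. For plasmacytoid dendritic cells, strong producers of interferon alpha, 4 of 6 genes were in the table, with sums of 309, 807 and 558 and of 511, 1232 and 615, Ccr9 having the highest mean, at 154 to 741, Siglech being above it in WT replicate 3 (198), and none being at 0. WT replicate 1 was lowest in the plasmacytoid sum as in the members. Replicate 2 labelled Bach2-cKO was highest in that sum and low in the members. The single genes did not all follow that order. Siglech was at 83.8, 232 and 198 in WT and at 88.7, 229 and 27.6 in the libraries labelled Bach2-cKO. Siglech and Tcf4 were lowest in replicate 3 labelled Bach2-cKO, and Ccr9 in WT replicate 3. Lair1 alone of the 4 was lowest in WT replicate 1. The gate took B220- cells, and plasmacytoid dendritic cells and B cells carry B220. How many cells of either type passed the sort was not tested.

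The 4 Th1 genes summed to 3125, 2417 and 3417 in WT and to 1626, 1710 and 1438 in the libraries labelled Bach2-cKO, without overlap. Cxcr3 and Ifng were lower without overlap (log2 fold changes -1.86 and -2.02), while Tbx21 and Stat4 overlapped between the groups (0.06 and -0.44). Stat4 was the most abundant of the 4, at 872 to 1863, and none was at 0. The 5 B cell genes in the table, of 6 listed, summed to 204, 769 and 492 and to 202, 235 and 269. Cd79b was the most abundant at 102 to 369, and Blnk was at 0 in at least 1 library. Ms4a1 was lower without overlap (log2 fold change -2.83). It was at 35.3, 33.7 and 45.8 in WT and at 2.96, 2.68 and 10.2 in the libraries labelled Bach2-cKO. The other B cell genes overlapped between the groups. The 6 NK and CD8 T cell genes summed to 5827, 4153 and 3548 and to 1488, 3190 and 1983, also without overlap. Nkg7 was the most abundant at 962 to 5536 and lower without overlap (log2 fold change -1.22). The other genes of that list overlapped between the groups, and Ncr1 and Klrd1 were at 0 in WT replicate 1. The 4 erythroid genes summed to 4.04, 640 and 4.16 and to 23.6, 30.8 and 2585, with Hbb-bs highest in its mean over the libraries and each of the 4 at 0 in at least 1 library. The part of any of these lists in the members' values was not tested.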

How the data were processed

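RNA of 6 libraries, 3 in each group, was read from 1 table of 14744 genes. The authors deposited the signal as normalized read counts, reads per gene divided by a size factor. The study's methods name Tophat2, HTSeq and DESeq2, and the submitters' processing notes name STAR 2.5.2b, DESeq, R 3.5.1, DESeq2 1.20.0 and GRCm38, so which aligner made the values is not settled here. Members and lists were chosen with earlier results of these data known.

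Values were tested as log2(value + 1) by limma 3.58.1 (R 4.3.3) with a variance trend, for the 11296 genes reaching 10 in 3 libraries or more, and p-values were adjusted by the Benjamini-Hochberg method. A fold change on this scale understates that of low genes, and 3 libraries against 3 cannot give an exact 2-sided permutation p under 0.1. Whole reads were recovered by dividing by the smallest positive value of a library; edgeR 4.0.16 and DESeq2 1.42.0 used 5 libraries, since a rule on units does not accept the step of 1.01 in WT replicate 1. Recovered depth was 5045131 to 10987752 reads in those 5 libraries, and low values such as Oasl2 in WT replicate 1 carry a large counting error. PCR copies were not told apart.

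Genes were named by rule: in each of 8 role groups, the 2 of smallest limma p and the most abundant other one, Ifnar1, Irf1, Irf7, Irf9, Stat2, Ifng and Bach2, and the 3 of smallest p in each pathway list. From the lists, 3 genes are not reported here and were left out of the lists' counts and sums, though the fits over all genes tested keep every gene past the filter. The 6 members far lower in WT replicate 1 were added after their values were seen. Alternatives were other pseudocounts (0.5 and 5), filters, scalings, variance models, library weights, a replicate block, a trend in transcript length and GC content, count tests and single libraries left out. Lengths and coordinates are from GENCODE M21 on GRCm38, by symbol for 14329 genes and an older symbol for 366. The fits were tested on simulated data.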

Additional observations from a re-analysis of the deposited data

How the results depend on the processing

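With limma, 0 members were higher and 0 lower at the study's thresholds under the pseudocounts, filters, scalings, the replicate block, the trend removal, an adjusted p of 0.05 and each single library left out. In each of these fits 0% of all genes tested passed, so the 0 holds for any set of genes. The library weights were the exception, with 5 members lower and a median log2 fold change of -0.27. The shares in brackets are those of all genes tested in the same fit. At an unadjusted p under 0.05 the 3 members higher of 50 became 1 without a variance trend (9.05%), 1 with the length and GC trend removed (4.86%), 1 in edgeR (9.55%) and 0 in DESeq2 (9.66%), and 0 to 4 with single libraries left out (4.14% to 13.1%). Under library weights the number higher was again 3 (24.3%). The 2 lower of 50 became 1 with quantile normalization (10.8%) and 1 without a variance trend (7.83%). They became 20 of 50 with library weights (22.8%), 6 of 50 in edgeR (8.77%) and 7 of 50 in DESeq2 (9.45%). With single libraries left out they became 1 to 9 of 50, 9 being without WT replicate 1 (9.43%) and 8 without replicate 3 labelled Bach2-cKO (14.04%). Members without overlap went from 3 to between 3 and 7 higher (16.95% to 27.2%) and from 2 to between 2 and 10 lower (13.95% to 23.0%) with single libraries left out, where groups of 2 overlap less often by construction. The 10 lower were without WT replicate 1 (18.1%), and 8 were lower without replicate 3 labelled Bach2-cKO (23.0%). Those lower were 1 with quantile normalization (12.2%) and 5 with the trend removed (12.2%). The cause of these changes was not tested.

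Replicate numbers are shared by the groups, but same-numbered libraries did not deviate together (correlations -0.07, 0.12 and -0.04), so they were not taken as paired. With a replicate block, 2 members were higher and 4 lower at an unadjusted p under 0.05, beside 9.00% and 9.15% of all genes tested.

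The members' median lay between -0.18 and 0.26 when any 1 library was omitted, so its sign was not stable. The log2 fold changes of the named genes kept their sign in 753 of the values computed under alternatives, 182 of them from settings that cannot move a fold change (2 filters, no variance trend and the replicate block), and 15 more passed the thresholds under library weights or DESeq2. The sign turned in 58. With library weights the values were -0.12 for Eif2ak2, -0.15 for Ddx58, -0.19 for Zbp1, -0.43 for Parp12, -0.033 for Slfn5, -0.21 for Ly6a, 0.035 for Irf9, -0.36 for Oasl2, -0.84 for Ifit1, -1.53 for Ifit3 and -0.94 for Mx2. In edgeR on 5 libraries they were -3.2e-05 for Ddx58, -0.26 for Oas2, -0.0048 for Samhd1, -0.72 for Parp12, -0.042 for Ly6a, 0.050 for Irf9, -0.52 for Oasl2, -0.59 for Ifit1, -0.99 for Ifit3 and -0.59 for Mx2. In DESeq2 they were -0.023 for Ddx58, -0.27 for Oas2, -0.028 for Samhd1, -0.73 for Parp12, -0.070 for Ly6a, 0.029 for Irf9, -0.54 for Oasl2, -0.61 for Ifit1, -1.01 for Ifit3 and -0.61 for Mx2. The edgeR and DESeq2 fits leave out WT replicate 1, and the library weights were 0.206 for it and 0.421 for replicate 3 labelled Bach2-cKO, but what turned each sign was not tested. With the length and GC trend removed the values were -0.010 for Zbp1, -0.17 for Samhd1 and -0.052 for Jak1, and with quantile normalization 0.095 for Irf9 and -0.27 for Mx2.

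When any 1 library was omitted, log2 fold changes spanned -0.0048 to 0.55 for Ddx58, -0.095 to 0.36 for Zbp1, -0.13 to 2.07 for Oas2, -0.49 to 0.12 for Oas1a, -0.011 to 0.26 for Samhd1, -0.60 to 1.49 for Parp12, -0.0089 to 1.204 for Slfn5, -0.29 to 0.20 for Slfn8, -0.14 to 0.11 for Irf9, -0.51 to 1.88 for Oasl2, -0.62 to 0.65 for Ifit1, -1.23 to 1.42 for Ifit3 and -0.64 to 0.60 for Mx2. WT replicate 1 gave the negative end for Ddx58, Oas2, Oas1a, Samhd1, Parp12, Slfn8, Oasl2, Ifit1, Ifit3 and Mx2, and replicate 3 labelled Bach2-cKO for Zbp1, Slfn5 and Irf9. Depth limits the lowest values, such as Oasl2 and Oas2 in WT replicate 1, where counting error is large.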
